A study of Mus musculus with 20 samples.

Results

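This is the response to a Western diet in livers that lack both liver X receptors (LXR). It was taken from the samples whose titles give the LXR knockout and its diet, which are 10 of the 20 arrays of the study. The 5 mice on Western diet are set against the 5 mice on normal diet, and all genes with a measurable probe were tested. The other 10 arrays, from wild-type mice on the same diets, entered the same fit. They share in the estimate of spread, the filter of genes and the choice of probe for every test. Their own levels and diet differences are given for comparison. Per the labels, all knockout mice were LXR alpha/beta double knockouts, male, 28 weeks old and on a mixed Sv129/C57Bl6J background. One group ate Western diet for 7 weeks, given in the labels as a Cocoa Butter Diet (TD.88051) with Purina Mouse Chow. The other ate normal chow for the same time, the Teklad Global diet 2016 with 16% protein. The wild-type groups had the same background, sex and age, and each group held 5 different mice according to the design text. RNA came from a piece of the large lobe of each liver, so hepatocytes, the main cells of the liver, were measured together with macrophages, stellate cells, bile duct cells and vessels. In such bulk tissue, fewer cells of a type and less RNA per cell cannot be told apart.

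LXRs are nuclear receptors that bind oxidised cholesterol and switch on genes that export sterols, store them as esters, make fatty acids and, in mice, turn cholesterol into bile acids. Cells also sense cholesterol without LXR: when sterols are plentiful in the endoplasmic reticulum, the transcription factor SREBP-2 is held there unprocessed, and the genes for making cholesterol and taking up LDL are left less active. Cholesterol that cannot be exported or converted collects as esters in hepatocytes and in macrophages.

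The data are log2 signals of single-colour arrays, each set so that the 75th percentile of its array is 0. That percentile was 332.2 to 431.9 intensity units on the Western-diet arrays and 220.2 to 318.7 on the normal-diet arrays, and 58.91% to 67.12% of probes were well above background. Differences are Western minus normal diet, on the log2 scale, ± SE, with 5 mice a group unless stated, and adjusted p-values come from limma over all genes. Arrays with the same scan date in the file headers are taken here as 1 slide, as no slide label was read. Each slide with knockout arrays held 1 mouse of each diet with the same replicate number, so the diet difference could also be read within 5 slides. The check of the knockout came first. Nr1h3, the gene of LXR alpha (probe at chr2:90985117-90985176, mm8), read -4.53, -5.41, -4.36, -3.71 and -5.41 in the 5 mice on Western diet and -4.94, -3.8, -4.37, -4.25 and -5.15 in the 5 on normal diet. Wild-type groups averaged 4.31 ± 0.31 on Western and 4.55 ± 0.14 on normal diet (SD, n = 5 each), far above every knockout liver. Nr1h2, the gene of LXR beta, averaged -4.71 ± 0.7 and -4.52 ± 0.73 in the knockout groups on Western and normal diet, against 0.71 ± 0.1 and 0.88 ± 0.15 in wild type. Both genes were still well above background on 4 or 5 of 5 arrays in the knockout groups.

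Of 17548 genes tested, 3999 were higher and 4833 lower in the knockout livers on Western diet than in those on normal diet at an adjusted p under 0.05. That is 50.3% of the genes, 22.8% higher and 27.5% lower, so counts of gene groups below are read against these shares. With normexp background correction, which damps dim probes, 20.3% of the genes were called. Among called genes, 2247 rose and 1889 fell by 2-fold or more. The 2 groups did not overlap for 34.3% of the genes. The median difference over all genes was -0.11. On the first principal component of the 10 arrays, which held 66.1% of the variance, the Western-diet livers lay at -68.8, -91.0, -96.5, -35.1 and -84.5 and the normal-diet livers at 48.0, 92.1, 81.2, 96.3 and 58.4. Mouse 4 on Western diet lay nearest to the normal-diet group. In 88.2% of the called genes with a value on all 5 slides the direction was the same on every slide. These genes were called on the same arrays, so that share is no independent check. In wild type the same diet changed 569 genes upward and 488 downward, 6.03% of those tested. The diet difference itself differed between genotypes for 27.6% of genes, 2274 (13%) with a higher and 2564 (14.6%) with a lower difference in the knockout.

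**Figure D1:**
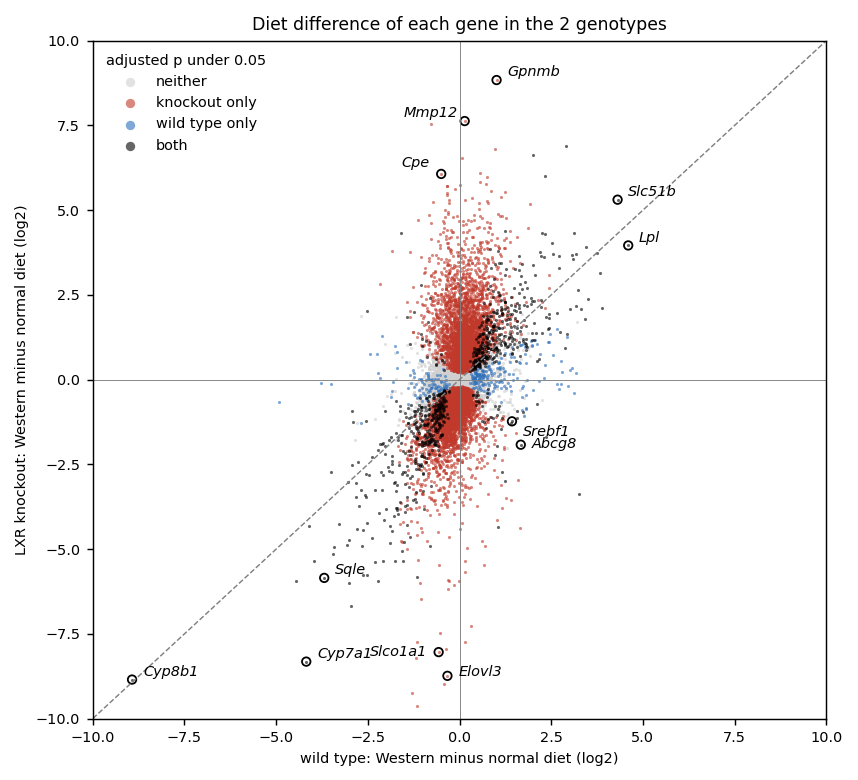
Each point is 1 gene, with its Western minus normal diet difference (log2) in LXR-knockout livers on the vertical axis and in wild-type livers on the horizontal axis, coloured by where the adjusted p was under 0.05. The dashed line marks equal differences. Most called genes lie along the vertical axis, with Gpnmb at 8.84 and Slco1a1 at -8.04 in the knockout, while Cyp8b1, Lpl and Slc51b lie near the dashed line.

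The genes that make cholesterol fell without exception: 25 of 25 genes of cholesterol synthesis and LDL uptake were lower, none was higher, and their median difference was -3.7, against -0.11 over all genes. All 25 were also lower with quantile normalization and with another background correction. Sqle encodes squalene epoxidase, an early oxygen-using step of sterol synthesis (probe at chr15:59160510-59160569, mm8). Its level was 0.47, -0.86, -2.13, -1.08 and -0.69 in the 5 livers on Western diet and 5.21, 4.41, 4.94, 5.17 and 5.22 in the 5 on normal diet. The groups lay far apart, and the difference was -5.85 ± 0.36, a 57.7-fold fall (adjusted p = 8.07e-10). Idi1, the isomerase that makes dimethylallyl diphosphate, read 2.22, 0.73, -0.07, 0.54 and 0.12 on Western and 6.53, 6.29, 6.46, 6.8 and 6.24 on normal diet. It fell 54-fold (-5.75 ± 0.33, adjusted p = 4.64e-10). Mouse 1 had the highest level of both genes among the Western-diet livers.

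Genes before and after squalene fell. In the mevalonate arm Fdps, farnesyl diphosphate synthase, fell 35.3-fold, and Hmgcs1, which makes HMG-CoA, 19.8-fold. After squalene, Cyp51, the lanosterol demethylase, fell 60.8-fold and Tm7sf2, a sterol reductase, 33-fold. Srebf2, the gene of SREBP-2, had a difference of -1.35 ± 0.14. In wild type the list fell too, in 23 of 25 genes, with a median of -1.7. The fall was deeper in the knockout by the test of the difference for 22 of the 25 genes, all but Mvd, Dhcr7 and Srebf2. The extra difference was -2.16 ± 0.51 for Sqle (adjusted p = 0.00393).

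SREBP-2 binds sterol regulatory elements, usually beside a CCAAT box bound by NF-Y. Of 2 promoters of genes that fell, that of Hmgcs1 shows both, and that of Idi1 shows CCAAT boxes without the sterol element. The windows are RefSeq promoters of GRCm38.p6, each 300 bases around the start of the gene, and both were picked after their values were seen. Hmgcs1 lies on the plus strand at chr13:119690101-119690400, with the sterol element TCACNCCAC and 4 CCAAT boxes in capitals. Idi1 lies on the plus strand at chr13:8885356-8885655, with 2 CCAAT boxes in capitals. A box on the opposite strand reads ATTGG.
Hmgcs1: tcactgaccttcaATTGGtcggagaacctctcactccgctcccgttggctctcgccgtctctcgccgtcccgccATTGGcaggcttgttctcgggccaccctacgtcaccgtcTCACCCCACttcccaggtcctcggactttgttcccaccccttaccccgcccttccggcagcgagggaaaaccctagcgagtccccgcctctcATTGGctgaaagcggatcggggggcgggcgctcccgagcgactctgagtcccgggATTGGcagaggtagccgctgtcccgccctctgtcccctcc
Idi1: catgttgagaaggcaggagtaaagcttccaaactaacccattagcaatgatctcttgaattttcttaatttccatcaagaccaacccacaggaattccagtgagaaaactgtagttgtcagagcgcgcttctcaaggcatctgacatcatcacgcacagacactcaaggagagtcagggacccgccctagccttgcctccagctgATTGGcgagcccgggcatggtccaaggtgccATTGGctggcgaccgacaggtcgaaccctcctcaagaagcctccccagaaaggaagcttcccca
Searched on both strands, CCAAT stood in the windows of 16 of the 17 list members that have one (94.1%), against 42.3% of 11455 tested genes with a window. TCACNCCAC stood in 1 of the 17 (5.9%), which was Hmgcs1, against 1.44% of all. These matches describe letters and are no measured binding sites.

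LXR target genes moved in both directions: of 15 measured, 4 rose and 7 fell, with a median of -0.5, against 0.36 in wild type. Abcg8 encodes one chain of the sterol exporter of the bile canaliculus. It read -0.55, -2.14, -1.48, -0.77 and -1.66 on Western and 0.67, 1.32, 0.77, -0.3 and 0.54 on normal diet, so the groups did not overlap, and fell 3.78-fold (-1.92 ± 0.29, adjusted p = 2.75e-05). In wild type the same gene rose (1.67 ± 0.29), and the 2 diet differences differed by -3.59 ± 0.41 (adjusted p = 8.15e-06). Its partner Abcg5 had -0.86 ± 0.36 (n = 3 on Western and 4 on normal diet after outlier spots were dropped, adjusted p = 0.0653). With the outlier spots kept it was called, at -0.92 (adjusted p = 0.00576), and also with array weights (-1.22), the series matrix (-0.58), trended moderation, or without mouse 4 on Western or on normal diet. Srebf1, the gene of the fatty acid regulator SREBP-1, also went in opposite directions in the 2 genotypes. Its levels were 3.2, 3.51, 3.27, 3.17 and 3.64 on Western and 4.52, 4.5, 4.79, 4.58 and 4.53 on normal diet. It fell in the knockout (-1.23 ± 0.23) and rose in wild type (1.43 ± 0.23), with a difference of -2.66 ± 0.33 between them (adjusted p = 1.49e-05). Abca1, the exporter that loads cholesterol onto HDL, did not pass the test (-0.02 ± 0.13, adjusted p = 0.917), and its sign changed with the scaling. The LXR targets that rose were Lpl, lipoprotein lipase (3.96 ± 0.32), Abcg1, a sterol exporter (2.87 ± 0.29), Arl4c, a small GTPase (2.65 ± 0.29), and Smpdl3a, a lysosomal phosphodiesterase (0.92 ± 0.13).

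Genes that store or carry sterols went both ways: 8 of 16 rose and 4 fell. Soat1 makes cholesterol esters in macrophages and many other cells. It read 3.0, 2.3, 2.79, 2.28 and 2.82 on Western and -0.79, -1.56, -1.15, -1.76 and -0.83 on normal diet, without overlap, and rose 14.5-fold (adjusted p = 1.05e-08). Soat2, the ester-forming enzyme of hepatocytes and gut, had -0.16 ± 0.17 (adjusted p = 0.468), and its groups overlapped. The oxysterol-binding protein gene Osbpl3 rose 10.8-fold, and Ch25h, which makes 25-hydroxycholesterol, rose 9.91-fold, a call not kept with normexp background correction. Npc2, which takes cholesterol out of lysosomes, rose 2.49-fold, whereas Lcat, the plasma enzyme that esterifies cholesterol on HDL, fell 2.42-fold.

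**Figure D2:**
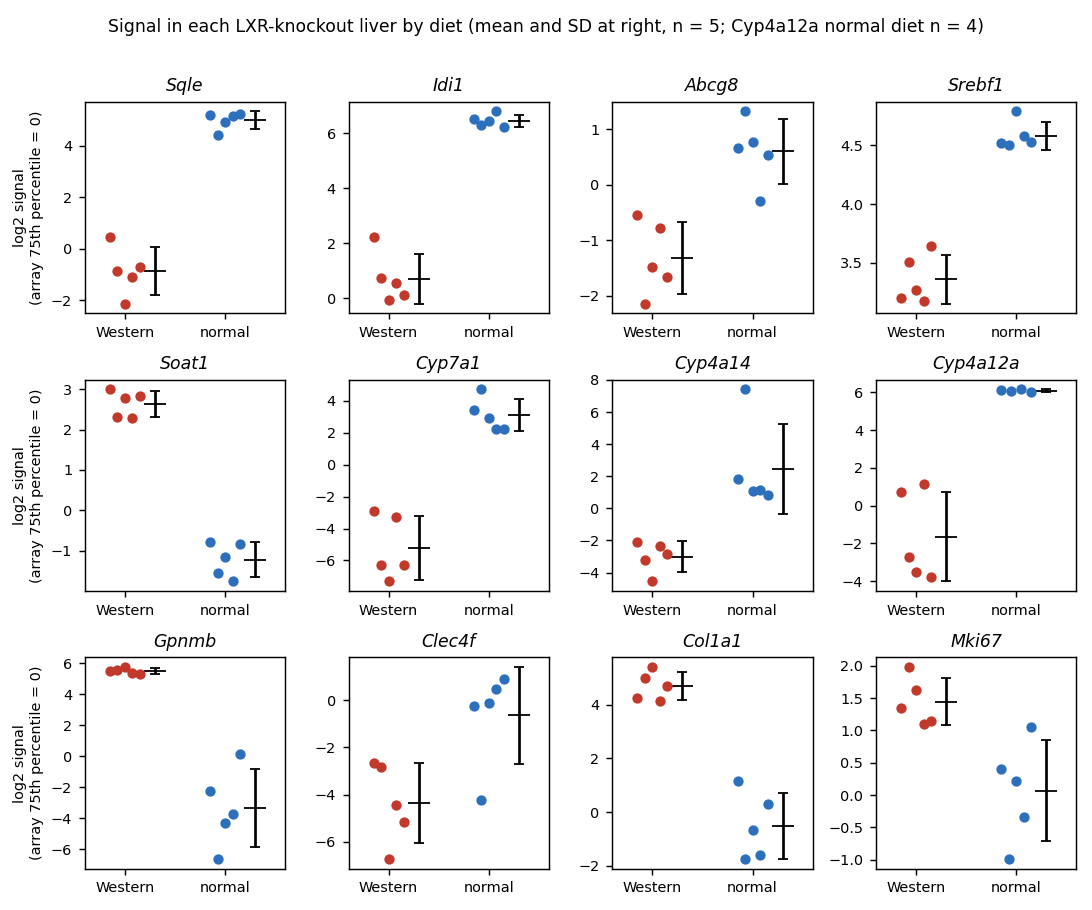
Each panel gives the log2 signal of 1 gene (array 75th percentile at 0) in the 5 LXR-knockout livers on Western diet (left) and the 5 on normal diet (right), with the mean and SD beside the points (4 values on normal diet for Cyp4a12a). The diets lie apart for every gene shown but Clec4f, where mouse 2 on normal diet at -4.23 lies among the Western-diet mice, and Cyp4a14 has the same mouse at 7.42, far above the other 4.

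Bile acid synthesis fell in 14 of 17 genes, with a median of -1.34. Cyp7a1, the rate-limiting enzyme of the classic route, read -2.88, -6.3, -7.31, -3.26 and -6.29 on Western and 3.44, 4.72, 2.89, 2.24 and 2.25 on normal diet. It was well above background on only 2 of 5 Western-diet arrays and on all normal-diet arrays, and fell by 8.32 on the log2 scale (SE 1.12, adjusted p = 7.19e-06). Cyp8b1, which sets the share of cholic acid, was well above background on 1 of 5 Western-diet arrays, that of mouse 1, and had -8.85 ± 0.76. In wild type Cyp8b1 had -8.93 ± 0.76. Cyp7b1, which hydroxylates oxysterols in the alternative route, read 2.38, 1.54, 1.22, 2.04 and 1.44 on Western and 6.27, 6.12, 7.01, 6.8 and 7.03 on normal diet and fell 30.2-fold. Cyp27a1, which opens that route in mitochondria, fell 3.44-fold. The only member that rose was Cyp39a1, a hydroxylase of 24-hydroxycholesterol (1.94 ± 0.3).

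Of 15 bile acid transporters 3 rose and 7 fell. Slc10a1, the sodium-dependent carrier NTCP of the blood side, was 10.3-fold lower. Slco1a1 was well above background on 1 of 5 Western-diet arrays and fell by 8.04 on the log2 scale. Slc51b, a chain of the OST exporter back to blood, read 1.41, 2.48, 2.51, 1.78 and 2.38 on Western and -2.46, -3.62, -4.13, -2.98 and -2.79 on normal diet, 39.7-fold higher. Abcc4, a basolateral pump, rose 3.26-fold. Abcb1a, a multidrug pump, rose 13.3-fold, being above background on 5 Western-diet and 4 normal-diet arrays.

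Fatty acid synthesis fell in 22 of 25 genes (median -1.6). Scd1, the main desaturase of liver, fell 6.15-fold, and Acss2, which makes acetyl-CoA from acetate, 13.9-fold. Thrsp, a lipogenic cofactor, fell 23.1-fold and Elovl6, which lengthens palmitate, 9.82-fold. Fasn, fatty acid synthase, had -2.91 ± 0.53 from 3 Western-diet and 2 normal-diet arrays, the rest having outlier spots. Elovl3, which makes very long chains and is male-biased in mouse liver, read 1.33, -6.96, -6.15, -6.78 and -7.25 on Western and 2.35, 2.5, 2.67, 6.07 and 4.34 on normal diet. Only mouse 1 on Western diet kept a level well above background, and the difference was -8.74 ± 1.2 (adjusted p = 8.52e-06). It differed from that in wild type by -8.42 ± 1.7 (adjusted p = 0.00123). Pnpla3, a lipid droplet lipase usually induced with lipogenesis, was the only member that rose (2.27 ± 0.7, above background on 4 of 5 normal-diet arrays). With normexp background correction it had 0.27 (adjusted p = 0.654) and no member rose.

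Fatty acid oxidation fell as well, in 24 of 33 genes (median -0.98), or in 13 with normexp background correction. Ppara, the nuclear receptor that drives it, fell 3.28-fold. The omega-hydroxylase Cyp4a10 read 0.45, -0.72, -0.53, 0.55 and -0.24 on Western and 3.82, 4.98, 3.78, 3.96 and 4.07 on normal diet and fell 18.6-fold. Its neighbour Cyp4a14 read -2.1, -3.24, -4.55, -2.33 and -2.86 on Western and 1.82, 7.42, 1.11, 1.13 and 0.81 on normal diet. Mouse 2 on normal diet stood far above its group, and the difference was -5.48 ± 1.06 with it and -4.23 without it (adjusted p = 0.000299 and 0.000138). The difference minus that in wild type (0.66 ± 1.06) was -6.13 ± 1.5 (adjusted p = 0.00507). The peroxisomal enzyme gene Ehhadh fell in the knockout (-2.23 ± 0.26) and rose in wild type (0.96 ± 0.26), a difference of -3.18 ± 0.37 (adjusted p = 8.63e-06). Cpt1a, the gate to mitochondrial oxidation, did not pass the test by its brighter probe (-0.4 ± 0.24, adjusted p = 0.166). The other of its 2 probes was called lower. Cpt1a was called with the mean of its probes (-0.76, adjusted p = 0.0219), with array weights (-0.71) and without mouse 4 on normal diet (-0.6). Only Ucp2, a mitochondrial carrier of macrophages and hepatocytes (1.99 ± 0.24), and Vnn1, a pantetheinase (1.06 ± 0.41, with overlap), rose, and the call for Vnn1 was lost under 14 alternatives. All 32 measured genes of oxidative phosphorylation were lower, by a median of -0.65, but 16 of them with quantile normalization and 3 with normexp background correction.

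Lipid droplet genes split: 5 rose and 14 of 23 fell, or 4 and 7 with normexp background correction, which ended the call for Cidea. Cidec, which fuses droplets, read 1.6, 3.34, 2.62, 2.18 and 3.19 on Western and -1.8, -0.39, -0.97, -1.39 and -0.53 on normal diet, 12.1-fold higher. Hilpda, which inhibits the main lipase, rose 4.67-fold, Cidea 5.74-fold and Plin3 2.69-fold. Plin2, the common coat protein, rose in the knockout (0.75 ± 0.15, n = 4 on normal diet) and fell in wild type (-0.5 ± 0.14), a difference of 1.25 ± 0.21 (adjusted p = 0.000287). The droplet-forming gene Fitm1 fell by 5.31 on the log2 scale and was above background on 2 of 5 Western-diet arrays. Among uptake genes, Cd36, a fatty acid and lipoprotein receptor, rose 3.4-fold and Fabp4, a binding protein of macrophages and fat cells, 3.87-fold. Fabp5 was not well above background on any normal-diet array and was at least 5.96-fold higher on Western diet, a call not kept with normexp background correction. Acsl1, the acyl-CoA synthetase of hepatocytes, fell at least 5.78-fold, with 1 saturated normal-diet array. Lipoprotein genes fell in 16 of 24, among them Lipc, hepatic lipase (-2.35 ± 0.23). With quantile normalization 9 of the 24 fell and 4 rose.

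Cytochrome P450 genes of drug metabolism fell in 19 of 29 and none rose. Cyp2c54 was 63.6-fold lower and Cyp1a2, a pericentral enzyme, 14.1-fold lower, while the periportal Cyp2f2 was at least 15.6-fold lower with 1 saturated normal-diet array. Cyp2e1, also pericentral, fell at least 8.5-fold, with 2 saturated normal-diet arrays. Conjugation enzymes fell in 23 of 32, or in 14 with normexp background correction, led by the sulfotransferase gene Sult5a1 (-5.36 ± 0.31) and the glucuronosyltransferase gene Ugt2b1 (-3.7 ± 0.32). Only Gsta4, which clears the lipid aldehyde 4-hydroxynonenal, rose (0.54 ± 0.19), a call lost without mouse 3 on normal diet (0.43, adjusted p = 0.0731). Amino acid catabolism and the urea cycle fell in 29 of 32 genes (median -1.21), with Oat at -2.79 ± 0.31, Tdo2 at -2.71 ± 0.33 and Hpd at -2.07 ± 0.21. Of 23 genes of phosphatidylcholine and methyl metabolism 17 fell and 4 rose, or 11 and 1 with normexp background correction. Bhmt, which remakes methionine, was at least 8.97-fold lower, as 4 of 5 normal-diet arrays were saturated, and Cbs, which opens the route to cysteine, 3.76-fold lower. Of the liver transcription factors 12 of 23 fell, but 9 with quantile normalization, 8 in the series matrix, 7 with scaling to the median and 4 with normexp, which ended the call for Hnf4a. Hnf4a had -0.89 ± 0.17, Cebpa -1.6 ± 0.26, Klf15 -1.72 ± 0.2 and the bile acid receptor gene Nr1h4 -1.45 ± 0.19 (n = 4 on normal diet).

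Male-biased genes fell in 15 of 16 measured, with a median of -3.95, or -3.24 with genes below background set at their bound. Mice sex-differentiate the liver through the pulse pattern of growth hormone, which acts by STAT5. Cyp4a12a, the male arachidonic acid hydroxylase, read 0.7, -2.74, -3.5, 1.14 and -3.81 in the 5 Western-diet livers and 6.15, 6.06, 6.16 and 6.02 in the 4 normal-diet livers without an outlier spot. Its normal-diet values lay within a narrow band and all Western-diet values below it, a difference of -7.74 ± 0.8 (adjusted p = 7.21e-07). Hsd3b5, a male-biased steroid dehydrogenase, read -0.87, -4.07, -5.58, -5.12 and -4.04 on Western diet, above background on 4 arrays, and 2.8, 2.29, 4.44, 4.26 and 3.91 on normal diet, with -7.48 ± 0.64. Slco1a1, which is also male-biased, read -2.29, -5.55, -5.41, -7.09 and -7.99 on Western and 1.66, 2.0, 2.82, 3.3 and 2.08 on normal diet. The differences from wild type were -7.9 ± 1.13 for Cyp4a12a (adjusted p = 9.72e-05), -6.94 ± 0.9 for Hsd3b5 (adjusted p = 2.49e-05) and -7.47 ± 0.97 for Slco1a1 (adjusted p = 2.66e-05). In wild type 1 of the 16 fell and the median was -0.33.

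Female-biased genes went both ways: 5 of 18 rose and 6 fell, with a median of -0.1. These counts lie near the shares over all genes, 22.8% higher and 27.5% lower. Akr1b7, an aldose reductase, rose 120-fold, being above background on 4 of 5 normal-diet arrays, Fmo2 4.15-fold and Abcd2, a peroxisomal fatty acid transporter, 2.57-fold. Abcd2 was above background on no wild-type array, and its call in the knockout was not kept with normexp background correction, under which 2 female-biased genes rose and 3 fell. Cyp2b9 and Cyp2b13 fell, with -2.76 ± 0.53 and -2.45 ± 0.58. Of the growth hormone axis, the receptor gene Ghr read 3.92, 3.48, 2.92, 4.15 and 3.21 on Western and 5.4, 5.49, 5.9, 5.69 and 5.66 on normal diet and fell 4.26-fold. Igf1 fell 2.68-fold by its brightest of 3 probes, 2 of which were called, and Igfals, which stabilises circulating IGF, 4.43-fold.

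Complement and coagulation genes fell in 28 of 32 (median -0.72), and none rose. With quantile normalization 17 fell and 2 rose, and in the series matrix 17 and 3. With normexp background correction 13 fell and none rose. C8b, a chain of the membrane attack complex, fell 11.2-fold and C9, its pore-former, 4.18-fold. Of the secreted proteins, Ttr fell 3.84-fold and the corticosteroid carrier gene Serpina6 7.62-fold, while the activin chain Inhbb was the only member that rose (2.61 ± 0.39, 1 of 2 probes), a call not kept with normexp background correction. The median of that list was -0.5, but 0.03 with quantile normalization. Alb, albumin, was saturated on every array and is given no fold. Fgf21 did not pass the test (1.08 ± 0.81, adjusted p = 0.282). The acute phase list was mixed, with 4 higher and 12 lower of 26, and its median of -0.31 became 0.19 with quantile normalization. Lcn2, an iron-trapping protein of neutrophils and stressed hepatocytes, had 5.03, 6.1, 5.22 and 5.44 in 4 Western-diet livers and 3.55, 0.57, -0.53, -1.23 and 1.4 on normal diet. It rose by 4.7 ± 1.17, and its difference exceeded that in wild type by 5.82 ± 1.6 (adjusted p = 0.0119). Hamp, the iron hormone hepcidin, fell 4.24-fold, with -1.78 and adjusted p = 0.0598 under normexp.

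**Figure D3:**
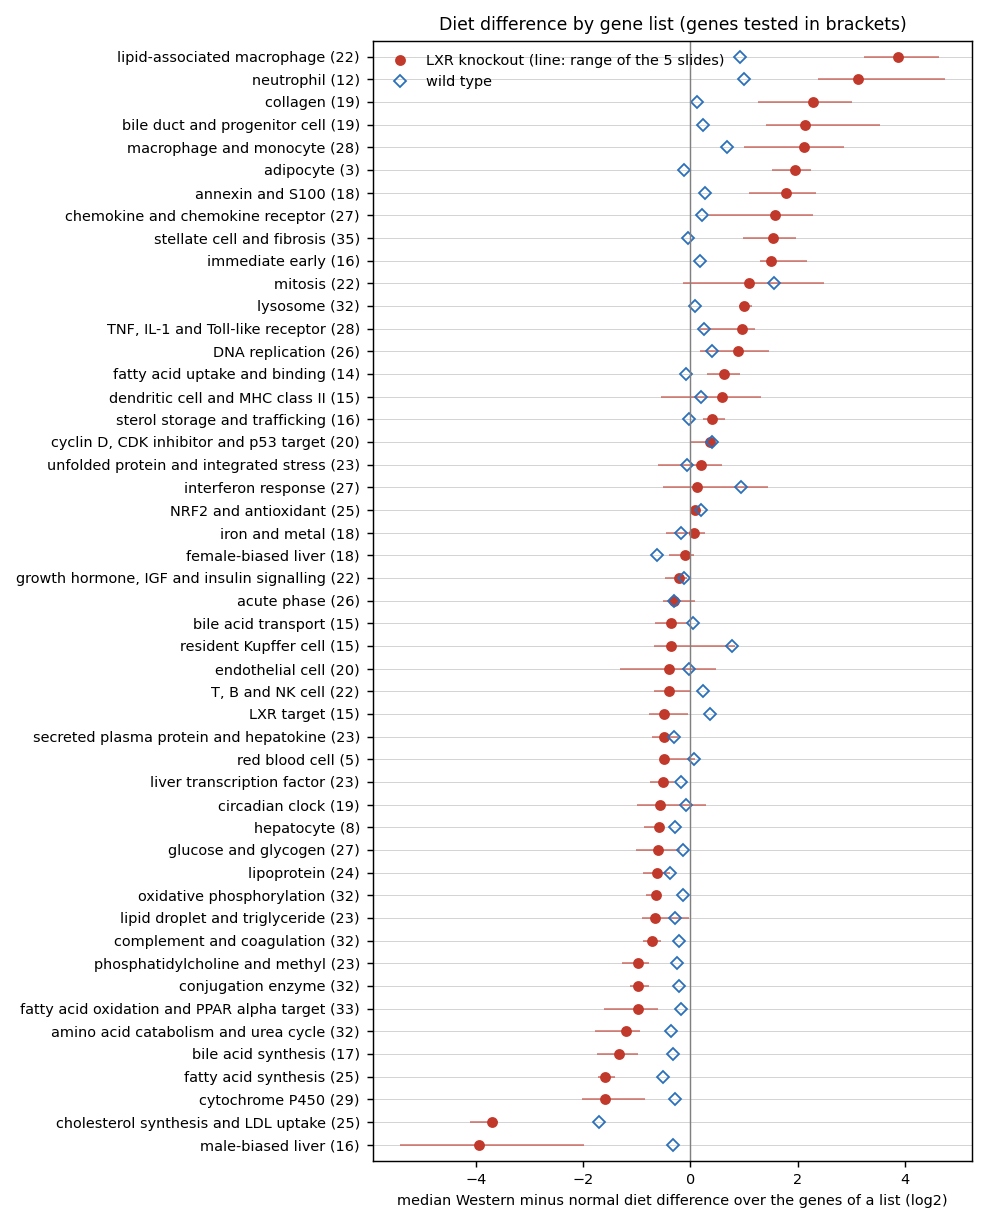
For each of 49 gene lists the filled circle is the median Western minus normal diet difference (log2) in LXR knockout, with a line over the range of the 5 slides, and the open diamond is the median in wild type. Lipid-associated macrophage genes lie highest at 3.87 and male-biased genes lowest at -3.95, while the mitosis list lies at 1.1 in knockout and 1.56 in wild type.

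The highest median of the 49 lists belonged to genes of lipid-associated macrophages, cells that gather around dying, lipid-filled cells in fat and liver: 19 of 22 rose and the median was 3.87. Gpnmb, a lysosomal glycoprotein of lipid-loaded macrophages (probe at chr6:48985973-48986032, mm8), read 5.47, 5.56, 5.75, 5.35 and 5.29 on Western and -2.26, -6.64, -4.31, -3.7 and 0.14 on normal diet. The Western-diet livers lay within a narrow band, and mouse 5 had the highest level on normal diet. It was above background on 4 of 5 normal-diet arrays. The difference was 8.84 ± 0.87 (adjusted p = 1.83e-07). In wild type Gpnmb was above background on 1 of 5 arrays on Western and 0 of 5 on normal diet. Mmp12, macrophage elastase, read 1.77, 1.09, 1.22, 1.05 and 1.29 on Western diet and -7.35, -7.15, -6.97, -6.91 and -3.39 on normal diet, where it was above background in mouse 5 alone. In wild type it was above background on no array. Trem2, a lipid receptor of these cells, had 6.81 ± 0.69 (n = 3 on Western diet), Syngr1 6.55 ± 0.32 and Lgals3, galectin-3, 5.55 ± 0.42. The differences from wild type were 5.84 ± 0.91 for Trem2 (adjusted p = 0.000208) and 6.48 ± 0.46 for Syngr1 (adjusted p = 4.64e-08). The only member that fell was Tmem26, at least 2.24-fold, with no Western-diet array above background, a call not kept with normexp.

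General macrophage genes rose as well, 26 of 28, with none lower and a median of 2.12. Cd14, the endotoxin coreceptor, rose 26.2-fold and Ctss, cathepsin S, 18.2-fold (n = 4 on normal diet). Fcgr3, an Fc receptor, rose 10.4-fold, and Tyrobp, the adaptor through which TREM2 signals, 6.95-fold. Of 15 genes of resident Kupffer cells 1, Pcolce2, rose and 3 fell, against 22.8% and 27.5% of all genes. The other 11 were not called. Normexp and the series matrix called no rise. Clec4f, a lectin restricted to Kupffer cells, read -2.66, -2.84, -6.74, -4.43 and -5.17 on Western and -0.25, -4.23, -0.12, 0.48 and 0.9 on normal diet, above background on 4 and 5 arrays. It fell by 3.73 (adjusted p = 0.00114), or by 4.62 without mouse 2 on normal diet, which lay among the Western-diet livers. Wild-type livers averaged 3.73 ± 0.81 on Western and 3.24 ± 0.41 on normal diet. Timd4, which marks long-lived Kupffer cells, had -0.86 ± 0.69 (adjusted p = 0.315), or -1.62 without mouse 2 on normal diet (adjusted p = 0.0155), being above background on 2 Western-diet and 4 normal-diet arrays. The other genes of the list that fell were Fcna (-0.82 ± 0.2) and C6 (-2.57 ± 0.26), of which C6 is also made by hepatocytes.

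Neutrophil genes rose in 10 of 12 (median 3.12, or 2.73 with bounds), but in 2 with normexp background correction. S100a8, a calprotectin chain, read 0.77, 1.48, 2.38, 0.57 and 0.39 on Western and -2.35, -3.8, -3.95, -3.37 and -2.0 on normal diet and rose 18.5-fold. Camp, cathelicidin, was above background on no normal-diet array and was at least 11.9-fold higher on Western diet, a call not kept with normexp. Of 22 lymphocyte genes 2 rose and 6 fell, against 22.8% and 27.5% of all genes. With normexp 2 rose and 3 fell, and the calls for Gzma and Ms4a1 ended. The pair that rose, Blnk (3.16 ± 0.58, n = 3 on Western diet) and Cd52 (2.06 ± 0.46), are also made by myeloid cells. Gzma, granzyme A, was at least 3.99-fold lower, with no Western-diet array above background, and Ms4a1, the B cell gene of CD20, fell 2.77-fold, above background on 4 Western-diet arrays. Chemokine genes rose in 18 of 27, and in 5 with normexp background correction. Ccl2, which draws monocytes, rose by 3.15 ± 0.62, with overlap between the groups, and Cxcl5, which draws neutrophils, by 3.9 ± 0.62, above background on 4 normal-diet arrays and not called with normexp. Cxcl13, which draws B cells, fell by 3.46, above background on 2 Western-diet arrays.

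Lysosomal genes rose in 22 of 32 (median 0.99, range over slides 0.9 to 1.15). Ctsk, a collagen-cutting cathepsin, rose by 5.51 ± 0.39. In wild type Ctsk was above background on 1 of 5 arrays on each diet. Psap, which activates lipid hydrolases, rose 4.29-fold, Gusb, beta-glucuronidase, 4.09-fold, Lgmn, legumain, 5.77-fold and the aspartic protease gene Ctsd 4.23-fold (n = 4 on normal diet). Lamp2 (-0.96 ± 0.13, n = 4 on normal diet, 2 of 3 probes) and Gaa (-0.45 ± 0.12) fell, but not with normexp. TFEB and its relatives bind the CLEAR element of such genes, whose core TCACGTGA stood in the windows of 6 of the 26 list members with one (23.1%), against 1.98% of all 11455. The minus-strand window of Ctsd, chr7:142387778-142388077, is shown with the core in capitals.
Ctsd: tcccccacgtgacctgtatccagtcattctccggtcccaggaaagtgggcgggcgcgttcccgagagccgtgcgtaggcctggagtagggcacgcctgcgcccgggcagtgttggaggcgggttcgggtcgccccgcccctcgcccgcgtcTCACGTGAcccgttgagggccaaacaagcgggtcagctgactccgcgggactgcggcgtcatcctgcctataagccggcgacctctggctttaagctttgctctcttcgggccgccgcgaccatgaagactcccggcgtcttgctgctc

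Genes of scar tissue rose: 16 of 19 collagen genes and 27 of 35 genes of stellate cells and fibrosis were higher, with medians of 2.28 and 1.54, against 0.13 and -0.05 in wild type. With normexp 11 collagen genes (median 0.79) and 17 stellate genes (median 0.75) were higher, and Lox, Thbs1 and Col12a1 were not called. Col1a1, the main chain of scar collagen, read 4.26, 4.98, 5.4, 4.13 and 4.69 on Western and 1.15, -1.75, -0.68, -1.59 and 0.29 on normal diet. The groups lay apart, and the gene rose 37-fold (adjusted p = 7.65e-08). Col3a1 rose 13.4-fold and Col1a2 11.5-fold, while Col12a1, above background on no normal-diet array, was at least 5.84-fold higher. Timp1, which blocks matrix proteases, read 2.93, 4.22, 4.66, 2.84 and 3.54 on Western and 0.04, -0.02, 0.08, 0.77 and -0.27 on normal diet, 11.4-fold higher. Lox, which crosslinks collagen, rose by 4.24 ± 0.45 and Thbs1, which activates TGF-beta, by 4.57 ± 0.45, each above background on 1 normal-diet array. Vim, an intermediate filament, rose 12.8-fold and Mmp2, a gelatinase, 8.96-fold. The collagens that fell were Col27a1 (-2.26 ± 0.33), Col5a3 (-1.17 ± 0.29, with overlap) and the basement membrane chain Col18a1 (-0.69 ± 0.12), of which Col18a1 was not called under quantile normalization, normexp or in the series matrix. Fn1, which hepatocytes secrete into plasma, fell (-0.48 ± 0.15), with overlap, a call lost under 6 alternatives.

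Bile duct and progenitor cell genes rose in 15 of 19 (median 2.14), none fell, and normexp background correction called 10. Prom1, a progenitor surface protein, read 0.71, 1.47, 1.35, -0.15 and 0.82 on Western and -4.89, -7.23, -5.66, -4.3 and -3.75 on normal diet, where 3 arrays were above background, and rose 64.2-fold. Cd24a rose 7.99-fold, and Cftr, the chloride channel of bile duct cells, was at least 6.1-fold higher with no normal-diet array above background, a call not kept with normexp. Endothelial genes went both ways, 4 higher and 7 lower of 20, near the shares of 22.8% and 27.5% over all genes. The lymphatic and sinusoidal receptor gene Lyve1 rose 4.53-fold and Pecam1 fell 2.8-fold. The 8 hepatocyte markers fell in 7, with a median of -0.58, or -0.05 with quantile normalization, where 3 were called. Scaling to the median of each array called 4 lower and normexp 2. The 7 include Alb, which was saturated on every array and was not called with these scalings, normexp or the series matrix. The mean level of those 8 was 5.42 to 5.81 on Western and 6.46 to 6.8 on normal diet, and that of the macrophage list was 2.47 to 2.88 on Western and -0.39 to 1.55 on normal diet. The part of these cell markers in the falls of hepatocyte genes was not tested.

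**Figure D4:**
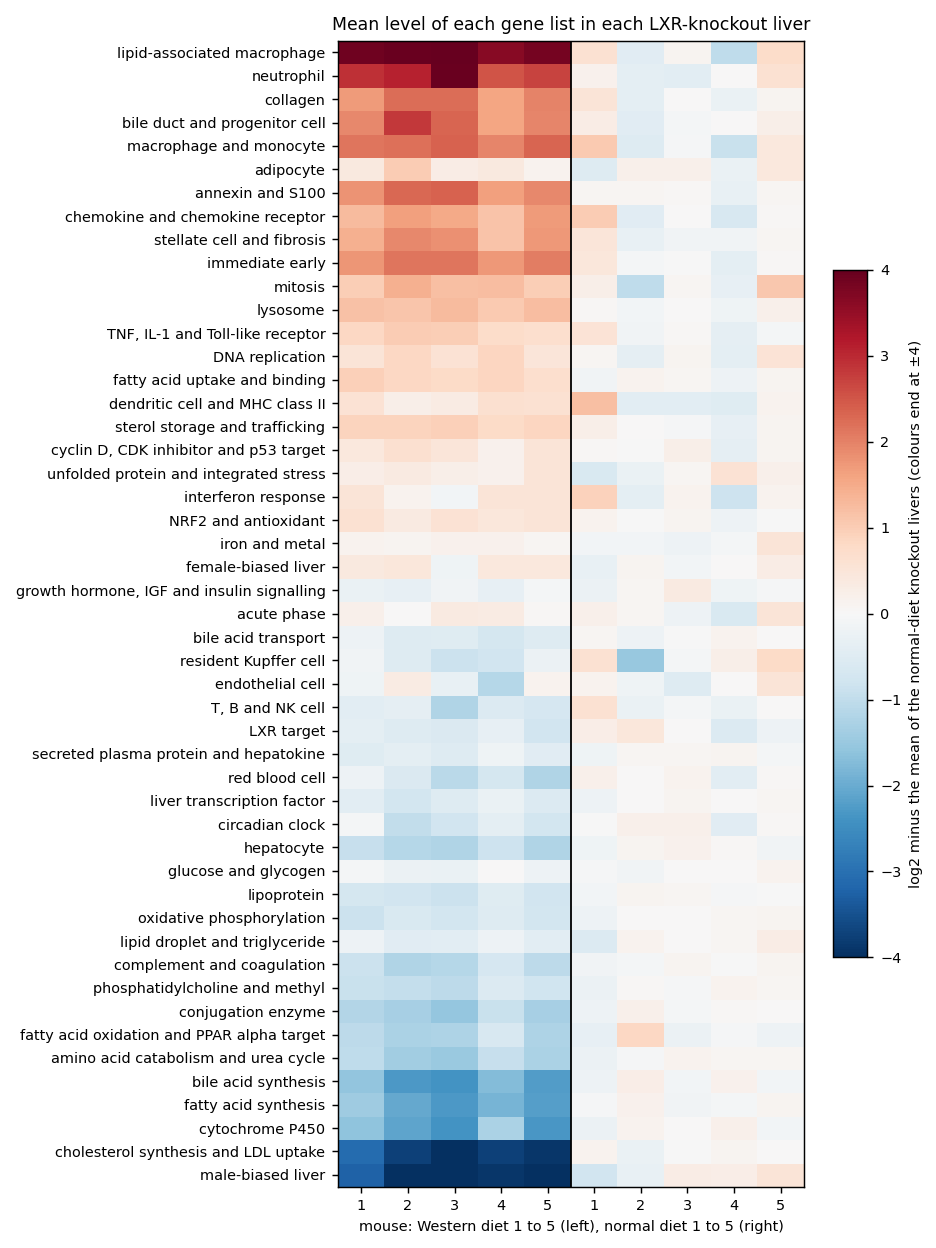
Each row is a gene list and each column an LXR-knockout liver, Western diet mice 1 to 5 at left and normal diet mice 1 to 5 at right; colour is the mean log2 level of the list minus the mean of the normal-diet group. Mouse 4 on Western diet is the palest of its group in many lists, and mouse 2 on normal diet stands out in fatty acid oxidation (higher) and resident Kupffer cells (lower).

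Cell division genes rose in both genotypes. In the knockout 14 of 22 mitosis genes rose with none lower (median 1.1), in wild type 16 (median 1.56), and the test of the difference called none of the 22. The knockout groups did not overlap for 4 of the 22, against 34.3% of all genes, and the slide medians ran from -0.14 to 2.5. The mean level of the list was -1.25 in mouse 5 on normal diet, above mice 1 (-1.36) and 5 (-1.34) on Western diet. With normexp background correction 1 of the 22 was called in the knockout, and neither Tpx2 nor Cdc6 was. Mki67, a marker of cycling cells, read 1.35, 1.98, 1.63, 1.1 and 1.15 on Western and 0.4, -0.99, 0.22, -0.34 and 1.06 on normal diet. The highest normal-diet liver lay just under the lowest on Western diet, and the difference was 1.37 ± 0.4 (adjusted p = 0.00835), called in 1 of 2 probes. Tpx2, a spindle protein, rose 4.41-fold. Cdk1, the kinase of mitotic entry, rose by 1.35 ± 0.49 with overlap, a call lost with normexp (0.08), in the fit of the 10 knockout arrays alone (adjusted p = 0.0604) and without mouse 4 on Western diet or mouse 2 or 3 on normal diet (adjusted p = 0.0581, 0.0911 and 0.0601). Among DNA replication genes 17 of 26 rose, among them the licensing factor genes Cdc6 (2.33 ± 0.44, above background on 2 normal-diet arrays) and Cdt1 (1.9 ± 0.29), and 3 fell. E2f8, an atypical E2F of polyploid hepatocytes, fell by 5.01, above background on 2 Western-diet arrays, with 1 of its 2 probes called. Of the cell cycle brakes Cdkn1c rose 4.02-fold and Cdkn2b 3.95-fold (not called with normexp), and the G1 cyclin gene Ccnd1 rose 2.2-fold.

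The promoters of mitosis genes often hold a cell cycle homology region, TTTGAA, which the DREAM complex and MYB-MuvB bind. On both strands it stood in 12 of the 17 list members with a window (70.6%), against 15% of 11455 genes, and CCAAT stood in 14 of the 17 (82.4%). The minus-strand window of Cdk1, chr10:69352863-69353162, has both in capitals.
Cdk1: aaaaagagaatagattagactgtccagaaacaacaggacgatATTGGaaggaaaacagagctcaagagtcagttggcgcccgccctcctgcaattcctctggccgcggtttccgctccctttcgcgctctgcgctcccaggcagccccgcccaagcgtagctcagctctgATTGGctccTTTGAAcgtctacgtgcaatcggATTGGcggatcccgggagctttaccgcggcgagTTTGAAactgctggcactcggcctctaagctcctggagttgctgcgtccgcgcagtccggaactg

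Immediate early genes rose in 12 of 16 (median 1.51), led by Egr2 (4.41 ± 0.36) and Atf3 (3.72 ± 0.47), and Fos rose 6.71-fold. Genes of annexins and S100 proteins, calcium-binding proteins of membranes and cytoskeleton, rose in 11 of 18, with Anxa1 at 4.67 ± 0.25, S100a11 at 4.51 ± 0.33 and Anxa2 at 3.86 ± 0.32. The antioxidant list was mixed, 11 higher and 9 lower of 25, or 9 and 3 with normexp and 12 and 5 with quantile normalization. Slc7a11, the cystine importer, was above background on every Western-diet array and on no normal-diet array, at least 6.99-fold higher, a call not kept with normexp. Gpx3, a secreted peroxidase, read 1.99, 2.27, 2.61, 0.19 and 2.05 on Western and -2.05, -3.2, -3.37, -3.51 and -2.18 on normal diet and rose 25.7-fold, whereas Cat, catalase, fell 4.02-fold. Of 28 genes in the list of TNF, IL-1 and Toll-like receptors 19 rose and 4 fell, or 11 and 4 with normexp. Tnfrsf12a, the receptor of the regeneration signal TWEAK, rose 9.12-fold, while Il1rap, a chain of the IL-1 receptor, fell 6.59-fold, called in 1 of 2 probes.

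Some of the largest differences lay outside these groups. Cpe, a carboxypeptidase that processes peptide hormones, read 3.09, 3.77, 4.05, 3.38 and 4.2 on Western and -2.68, -2.54, -2.7, -2.14 and -1.78 on normal diet, a rise of 6.07 ± 0.25 (adjusted p = 8.53e-12). It exceeded the difference in wild type by 6.56 ± 0.35 (adjusted p = 9.84e-10). Chil3, a chitinase-like protein of alternatively activated macrophages, rose 63.7-fold. Dio2, which activates thyroid hormone, was at least 23.5-fold higher, the calcium channel gene Cacna1b at least 12.8-fold and Cd109, which binds TGF-beta, at least 9.37-fold, each with no normal-diet array above background. Of these Dio2 kept its call with normexp. In the other direction Susd4, a complement inhibitor, fell 102-fold. The carboxylesterase gene Ces1f fell 66.1-fold, and the carbonic anhydrase gene Car3 at least 63.9-fold, with 3 saturated normal-diet arrays.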

How the data were processed

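Each of 20 liver RNA samples, 5 per genotype and diet, was labelled with Cy3 and hybridised to 1 single-colour Agilent array. Per the file headers the deposited values are spot intensity from Feature Extraction, and the submitters' processing notes name Agilent Feature Extraction 9.5 and limma. From the processed intensity, log2 values were taken here, flagged outlier spots dropped, spots averaged per probe and the 75th percentile of each array subtracted. Background subtraction by the authors' scanner software makes dim probes noisy. The brightest probe stood for a gene if it was well above background on 4 of 5 arrays of a group. Probe positions are those of mm8 in the files. Limma 3.58.1 in R 4.3.3 was fitted to 4 group means over all arrays, with empirical Bayes moderation and Benjamini-Hochberg adjustment at 0.05. Pictures were drawn with matplotlib 3.10.9. A fold against a group with no array above background is a bound, from the lowest signal well above background on each array. The number of arrays limits the precision, and p-values measure the spread between mice.

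The deposited series matrix, used as an alternative, holds log2 values of 24493 of the 41174 probes. Its medians were 7.734 to 7.747 for knockout mice on Western diet and 7.755 to 7.766 on normal diet, and it correlated with the log2 processed signal at 0.974 to 0.982. Its direction is that of the signal, it is not centred per gene, and its normalization stays unknown.

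Symbols were updated through a RefSeq table by accession for 23374 probes and by symbol or synonym for 6733 and 2919, and 8148 kept the name in the files. Of 1072 listed symbols in 49 lists 1024 were tested. Promoter windows, from RefSeq on GRCm38.p6, matched 11455 of 17552 genes.

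The members, the 49 lists and the tests were chosen with earlier results of these data known. Genes named with values came from a rule: preset genes, the 20 highest and 20 lowest called differences without overlap, the 6 largest differences of each list, the 10 highest and 10 lowest differences between genotypes, and up to 5 members of a list that moved against its median. Of those a set was picked by role, and not all of it is reported here. In that set 76.4% of the calls held under every alternative with a test, against 70.1% of all eligible calls. Hmgcs1 and Cdk1 lie outside that rule and were chosen for their promoters after their values were seen, and a few genes without values were named to complete a count. Results for some genes are not reported here.

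Replicate numbers match slides in the knockout. Deviations from the group means of same-numbered mice correlated at 0.199, -0.04, 0.09, 0.451 and 0.431. On the second principal component, with 12% of the variance, mice 1 to 5 lay at 32.3, -25.3, -21.5, -43.8 and 32.3 on Western diet. On normal diet they lay at 38.2, -6.9, 2.5, -50.7 and 43. A shared effect of slide in these values was not tested. The labels do not pair mice by number, and no block was used in the reported fit. The limma script was tested on simulated data with known changes.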

Additional observations from a re-analysis of the deposited data

Results flagged for a closer look

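In 21 of 397 groups of 4 or 5 values tested, 1 mouse stood far from the others. Chance flags about 1 in 20 groups. Mouse 2 on normal diet was the outlying knockout liver for 7 genes. It was high for Cyp4a14 (7.42), Cyp4a10 (4.98), Ehhadh (6.2) and Vnn1 (1.33), which are fatty acid genes, and for Cyp4a12b (5.16). It was low for Clec4f (-4.23) and for Alas2 (4.02, nearest mouse 4.74), the first enzyme of haem synthesis in red cells. Other outlying normal-diet values were 4.79 for Srebf1 in mouse 3, -2.25 for Ch25h, 6.55 for Acsl1 and -1.95 for Mmp2 in mouse 1, and -3.39 for Mmp12 and -6.28 for Cacna1b in mouse 5. On Western diet, mouse 1 stood apart for Fdps (2.04), Elovl3 (1.33) and Cyp8b1 (-2.94), and mouse 4 for C9 (2.39) and Gpx3 (0.19). Mouse 3 stood apart for Ctss (7.44) and Ccnd1 (2.57), and mouse 5 for Fabp5 (-4.24).

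The diet difference differed between genotypes, by limma's test of the difference itself, for 2274 genes upward and 2564 downward in the knockout. Among 201 picked genes, some of them not reported here, it was 156, of which 14 are given. Of those, 4 were called in opposite directions in the 2 genotypes: Abcg8 (-3.59), Srebf1 (-2.66), Ehhadh (-3.18) and Plin2 (1.25). The downward differences were -8.42 for Elovl3, -7.9 for Cyp4a12a, -7.47 for Slco1a1, -6.94 for Hsd3b5 and -6.13 for Cyp4a14, of which the last was not called with normexp. The sterol gene Sqle had -2.16. The upward differences were 6.48 for Syngr1, 6.56 for Cpe, 5.84 for Trem2 and 5.82 for Lcn2.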

How the results depend on the processing

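Counts in the knockout, 3999 higher and 4833 lower genes, kept within 1.5 times of these under every alternative but normexp background correction, which called 1817 and 1745. Normexp called 61 and 82 genes in wild type and 638 and 365 for the difference between genotypes. Scaling to the median of each array called 368 and 188 in wild type and 1510 and 1706 for the difference. Leaving out 1 array at a time gave 3609 to 4041 higher and 4355 to 5041 lower genes in the knockout, 354 to 572 and 313 to 520 in wild type, and 1924 to 2457 and 2049 to 2780 for the difference. The wild-type counts were 373 and 319 without Western-diet mouse 1, 354 and 317 without Western-diet mouse 2, and 402 and 313 without normal-diet mouse 4. The cause of these moves was not tested. With the replicate block, which is also the slide block of the knockout mice, 3842 were higher and 5222 lower, and with slide as a block over all arrays 4321 and 5958. The replicate block called 10 instead of 6 lymphocyte genes lower and 6 instead of 3 interferon genes higher, and 0 higher and 5 lower Kupffer cell genes instead of 1 and 3. The series matrix called 15 genes of oxidative phosphorylation, 17 of complement, 9 of lipoproteins, 6 of secreted proteins and 3 of hepatocyte markers lower, and 8 acute phase genes higher with 5 lower. The median over all genes ran from -0.29 without a filter to -0.01 with quantile normalization. Of 201 picked genes, some of them not reported here, 193 were called. Of the 193, 147 held under every alternative with a test, and 188 had 1 direction on all 5 slides. The slides hold the arrays that gave the calls, so the 188 are no independent check. The sign turned for Nr1h3 with the series matrix (0.01), for Alb with quantile normalization (0.06) and the series matrix (0), and for Abca1 under scaling to the median (0.03), quantile normalization (0.15), normexp (0.24), the series matrix (0.11) and array weights (0.04), none of which was called. Abca1 lay at -0.07 to 0.06 with 1 array left out at a time. Within single slides it turned for Vnn1 (-1.09), Clec4f (1.39), Fn1 (0.16), Cenpf (-0.27) and Cdk1 (-0.66). Signal near background limits the dim genes.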

Other observations

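Glycolysis genes of the knockout livers went both ways, with 7 of 27 glucose and glycogen genes higher and 15 lower, but 7 and 6 with normexp, 9 and 12 with quantile normalization and 9 and 11 in the series matrix. Pkm, the pyruvate kinase of non-hepatocyte cells, rose 5.76-fold, and Hk3, the hexokinase of myeloid cells, had 3.07 ± 0.33. Ppp1r3c, which targets a phosphatase to glycogen, fell 5.34-fold. Of 23 genes of the unfolded protein and integrated stress response 3 rose and 3 fell, against 22.8% and 27.5% of all genes. With quantile normalization 8 rose and 1 fell, and in the series matrix 10 and 1. The 3 that rose in the reported fit included the serine synthesis genes Phgdh (2.78 ± 0.41) and Psat1 (2.36 ± 0.46, not called with normexp). Iron genes had 5 higher and 7 lower of 18, against 22.8% and 27.5% of all genes, or 3 and 1 with normexp. The transferrin receptor gene Tfrc rose 2.62-fold while Hamp fell. The antioxidant gene Gpx2 rose 6.62-fold, but was not called with normexp.

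Interferon genes were called in 4 of 27, 3 higher and 1 lower, against 50.3% of all genes called. Among the 4 were Oas1a (2.29 ± 0.81) and Irf8 (1.87 ± 0.27), both higher. The call for Oas1a was lost without mouse 2 (adjusted p = 0.0557) or mouse 4 (adjusted p = 0.0704) on normal diet. Of 15 genes of dendritic cells and MHC class II 4 rose, against 22.8% of all genes, with Cd83, a maturation marker, at 2.19 ± 0.47. Clec9a fell (-1.08 ± 0.32, with overlap and above background on 3 Western-diet arrays, not called with normexp). Clock genes had 1 higher and 4 lower of 19, against 22.8% and 27.5% of all genes, and 14 were not called. Ciart had -3.21 ± 0.75, overlapping and above background on 3 Western-diet arrays. Of 3 measured adipocyte genes Cidec and Fabp4 rose, and Cfd, adipsin, was at least 7.92-fold lower, with no Western-diet array above background and no call with normexp. The red blood cell list had 2 higher and 2 lower of 5 members, and its Alas2 fell 9.53-fold.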
